A study of Mus musculus with 6 samples.

Results

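The replication-dependent histone genes were taken as every locus of the count table with a gene symbol that begins with Hist1h, Hist2h, Hist3h or Hist4h. This gave 68 of 51499 loci, which carry 70 histone symbols, 3 of them annotated as pseudogenes. In 3 loci the authors' assembly had joined a histone gene with a neighbour, namely Hist3h2a with Trim17, Hist1h1e with Hist1h2be, and Hist2h2aa1 with Hist2h3c1. By class there were 6 loci for the linker histone H1, 20 for H2A, 19 for H2B, 12 for H3 and 13 for H4, where a locus that joins genes of different classes is counted in each.

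Bulk RNA-seq was carried out on mouse embryonic fibroblasts (MEFs) of 2 genotypes, with 3 cultures of each, to compare the transcripts of cells with and without YME1L, which is a protease anchored in the inner membrane of mitochondria. The cells were SV40 immortalized and came from animals with floxed Yme1l. After Cre recombinase had been introduced, genotyping of clones gave the wild-type (WT) group, Yme1l fl/fl, and the Yme1l-/- group, which had lost the gene. The lines were grown from individual clones, so the genotype and the clone cannot be told apart, and each p-value measures only the spread between cultures.

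Replication-dependent histone genes encode the H1 linker histones and the H2A, H2B, H3 and H4 core histones that package newly copied DNA, and they are transcribed mainly in S phase. Their usual mRNAs carry no poly(A) tail. The 3′ end is cut just after a short conserved stem-loop, which is bound by SLBP and governs processing, export, translation and decay of the mRNA, although polyadenylated transcripts of some of these genes are known, in particular from cells that have left the cycle. The libraries studied here were made from poly(A)-selected RNA, so the counts below describe the polyadenylated histone transcripts, together with any untailed RNA carried through the selection, and not the main stem-loop pool. In bulk RNA, fewer cells in S phase and less histone RNA per cell cannot be told apart.

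The stem-loop is shown first, because it defines the usual end of these mRNAs and many of the annotated transcripts run past it. A search of GENCODE M21 transcripts (GRCm38) for the pattern GGNNNNTNNNNNNNCC, with the first 6 bases able to pair with the last 6, on the transcript strand within 100 bases after the stop codon, found it in 44 of the 68 loci. It was found in 42 of 58725 protein-coding transcripts of other genes (0.0715%). It began 21 to 58 bases after the stop codon. There were 8 forms, and the commonest, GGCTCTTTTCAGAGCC, was held by 26 of 46 histone symbols with a stem-loop. The lines below give it for 8 loci whose values are described later, 5′ to 3′ on the gene's own strand with 5 bases on each side and the stem-loop in capitals, followed by its genomic position.
Hist1h1c, chr13:23739507-23739532, plus strand: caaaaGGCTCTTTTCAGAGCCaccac
Hist1h1d, chr13:23555782-23555807, plus strand: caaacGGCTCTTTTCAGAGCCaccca
Hist1h2ac, chr13:23683472-23683497, minus strand: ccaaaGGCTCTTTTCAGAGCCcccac
Hist1h2bh, chr13:23542923-23542948, minus strand: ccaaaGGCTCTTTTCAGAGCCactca
Hist1h4c, chr13:23698084-23698109, minus strand: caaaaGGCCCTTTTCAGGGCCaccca
Hist1h4i, chr13:22040961-22040986, minus strand: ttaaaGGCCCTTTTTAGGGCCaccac
Hist1h4j, chr13:21735432-21735457, plus strand: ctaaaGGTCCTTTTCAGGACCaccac
Hist3h2a, chr11:58955167-58955192, plus strand: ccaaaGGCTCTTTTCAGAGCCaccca
Among these 8, the H1, H2A and H2B genes shared the same 16 bases, while each of the 3 H4 genes had a form of its own. In each of the 8 the annotated transcript ran past the stem-loop, by 330 bases in Hist1h4i and by 4884 bases in Hist1h1d.

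Hist1h2bc, which had the highest level per length of all members, is annotated differently. Its transcript has no stem-loop by the rule above. The first exon (chr13:23684199-23684621, plus strand) stops shortly after the stop codon and is spliced over an intron of 7554 bases to a second exon (chr13:23692176-23692908). The junction is shown with the last 15 bases of exon 1 in lower case and the first 15 bases of exon 2 in capitals.
Hist1h2bc: aagtgatcctgccaaGAGGAGCAGACCTGA

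Few fragments came from these genes. The 6 libraries held 33180867 to 49351107 fragments, and the 68 loci together took 1745, 1815 and 1776 of them in WT and 1084, 1377 and 1454 in Yme1l-/- MEFs, in the order of the cultures. Scaled to CPM (counts scaled to 1000000 per library, with TMM scaling of library sizes), the summed level was 54.2 ± 1.37 in WT and 28.9 ± 1.87 in Yme1l-/- MEFs (SD, n = 3), which is 53.4% of WT. All 3 Yme1l-/- values lay below all 3 WT values. Without the locus joined with Trim17 the sum in Yme1l-/- MEFs was 46.3% of WT, an alternative added after the data were seen. The Yme1l1 gene itself, as a check of the labels, fell from 189 ± 5.16 to 39.1 ± 1.34 CPM.

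Of the 68 loci, 16 passed the filter on low counts and were tested with edgeR's quasi-likelihood test over 13867 loci. At an adjusted p under 0.05, 12 of the 16 were lower in Yme1l-/- MEFs, 1 was higher and 3 were not called. Over all loci tested, 34.1% were called lower and 33.6% higher, so that 67.7% were called in either direction. At least 2-fold lower were 11 of the 16 members, against 8.63% of all loci. The median log2 fold change was -1.31 over the 16 members and -0.0041 over all loci. In 12 members every Yme1l-/- library lay below every WT library and in 1 every Yme1l-/- library lay above, which held for 36.0% and 35.9% of all loci. The filter bears on these counts, because 8 of the 16 reached it through WT alone and 1, Hist1h2ao, through Yme1l-/- alone, and 7 of the 12 loci called lower are among the 8. Of the 7 loci whose counts in either genotype alone sufficed, 5 were lower, 1 was higher and 1 was not called. The other 52 members are described by their counts further on.

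**Figure D1:**
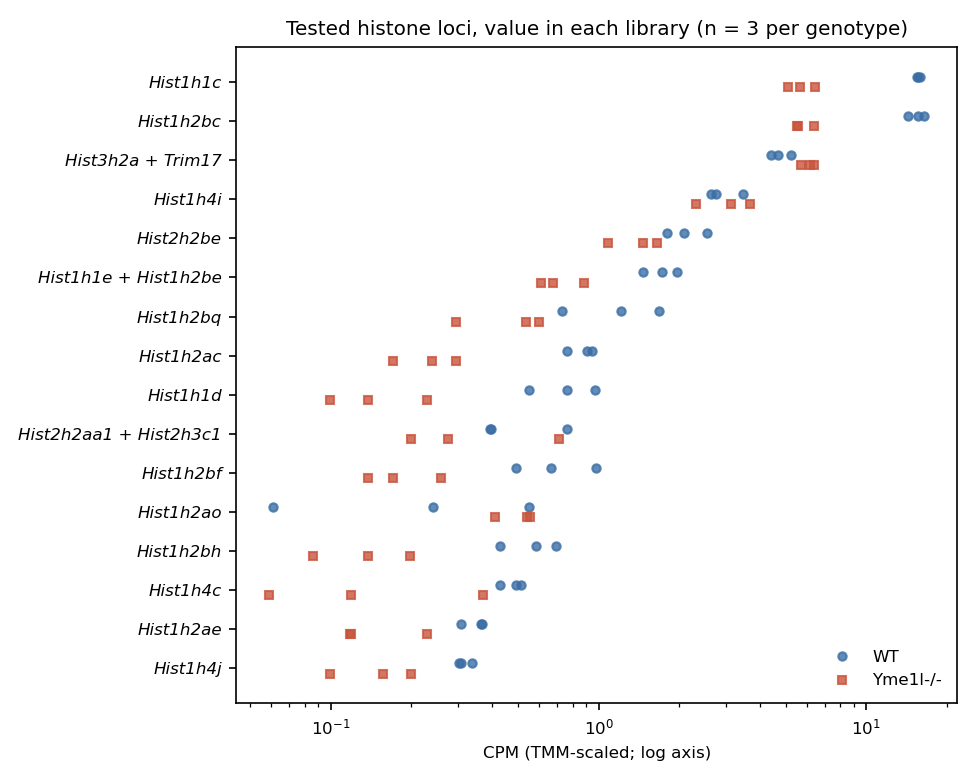
CPM of the 16 tested histone loci in each library on a log axis, ordered by mean level, with WT as circles and Yme1l-/- as squares (n = 3 per genotype). Hist1h1c and Hist1h2bc stand highest and their genotypes are far apart, while Hist1h4i, Hist1h2ao and the locus of Hist2h2aa1 and Hist2h3c1 overlap.

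Of 6 linker histone loci 3 were tested, and all 3 fell, where 34.1% of all loci did. In a fit without the filter, Hist1h1a, Hist1h1b and Hist1h1t were not called. Hist1h1c (chr13:23738808-23740367, exonic along its whole length), which encodes the H1.2 subtype, gave 526, 511 and 503 fragments in WT and 225, 285 and 260 in Yme1l-/- cultures. Its level fell from 15.6 ± 0.244 to 5.73 ± 0.667 CPM, a log2 fold change of -1.45 ± 0.10 (SE; edgeR adjusted p = 1.8e-07). The WT cultures hardly differed from each other, and no Yme1l-/- culture came near them. Hist1h1d, which encodes H1.3, gave 32, 25 and 18 fragments in WT and 8, 5 and 7 in Yme1l-/- cultures, and it reached the filter through WT only (log2 fold change -2.34 ± 0.39, edgeR adjusted p = 0.000248). The locus that joins Hist1h1e (H1.4) with the H2B gene Hist1h2be gave 57, 48 and 64 fragments against 31, 34 and 31 (log2 fold change -1.26 ± 0.22, edgeR adjusted p = 0.000392), and its fragments cannot be divided between the genes. Summed over the 5 loci of H1 alone, Yme1l-/- MEFs held 36.6% of the WT level. The replication-independent linker histone gene H1f0, whose mRNA is polyadenylated, fell from 232 ± 13.1 to 204 ± 4.02 CPM (log2 fold change -0.19 ± 0.05, edgeR adjusted p = 0.00507).

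Of 19 loci with an H2B gene 6 were tested, and all 6 were lower, where 34.1% of all loci were. Of the 6, Hist1h2bh and Hist1h2bf reached the filter through WT only. Hist1h2bc gave 474, 539 and 511 fragments in WT and 224, 280 and 282 in Yme1l-/- cultures. Its level fell from 15.5 ± 1.08 to 5.83 ± 0.495 CPM (log2 fold change -1.41 ± 0.10, edgeR adjusted p = 2.1e-07). The loci of Hist1h2bc, annotated as spliced, and Hist1h1c, annotated as unspliced, thus held nearly equal levels in CPM. Their log2 fold changes lay 0.041 apart, which is less than the SE of either. Whether the fragments of Hist1h2bc came from the spliced transcript cannot be read from counts per locus. Hist1h2bh gave 23, 14 and 19 fragments in WT and 3, 10 and 7 in Yme1l-/- cultures (log2 fold change -1.94 ± 0.39, edgeR adjusted p = 0.00104). Hist1h2bf gave 22, 32 and 16 against 6, 13 and 7 (log2 fold change -1.88 ± 0.39, edgeR adjusted p = 0.00112). In both, the groups did not overlap, but single cultures rest on a few fragments.

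Hist1h2bq gave 40, 24 and 55 fragments in WT and 21, 27 and 15 in Yme1l-/- cultures. The raw counts overlap, and the groups separate only after scaling to library size, at 0.733 to 1.68 CPM in WT and 0.294 to 0.600 in Yme1l-/- MEFs (log2 fold change -1.36 ± 0.35, edgeR adjusted p = 0.00518). Of the 100-base windows of its transcripts, 94.8% occur in at least 1 other histone gene, mostly its near copy Hist1h2br, so the fragments cannot be assigned to it with certainty. The same share was 46.4% for Hist1h2bf, 25.4% for Hist1h2bc, 8.16% for Hist1h2bh and 5.07% for Hist1h1c. Hist2h2be, on chromosome 3 (96221119-96223738), shared no such window with another histone gene and fell least among the H2B loci, with 84, 59 and 68 fragments in WT and 38, 74 and 84 in Yme1l-/- cultures (log2 fold change -0.60 ± 0.21, edgeR adjusted p = 0.0236). The raw counts overlapped, and the libraries separated only after scaling. The call was lost in 4 of 13 alternatives, namely without WT culture 1 (adjusted p = 0.0968 in edgeR), without Yme1l-/- culture 1 or 2 and with the chromosome median removed (adjusted p = 0.0630 in edgeR). Summed over 18 loci of H2B alone, Yme1l-/- MEFs held 41.6% of the WT level.

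**Figure D2:**
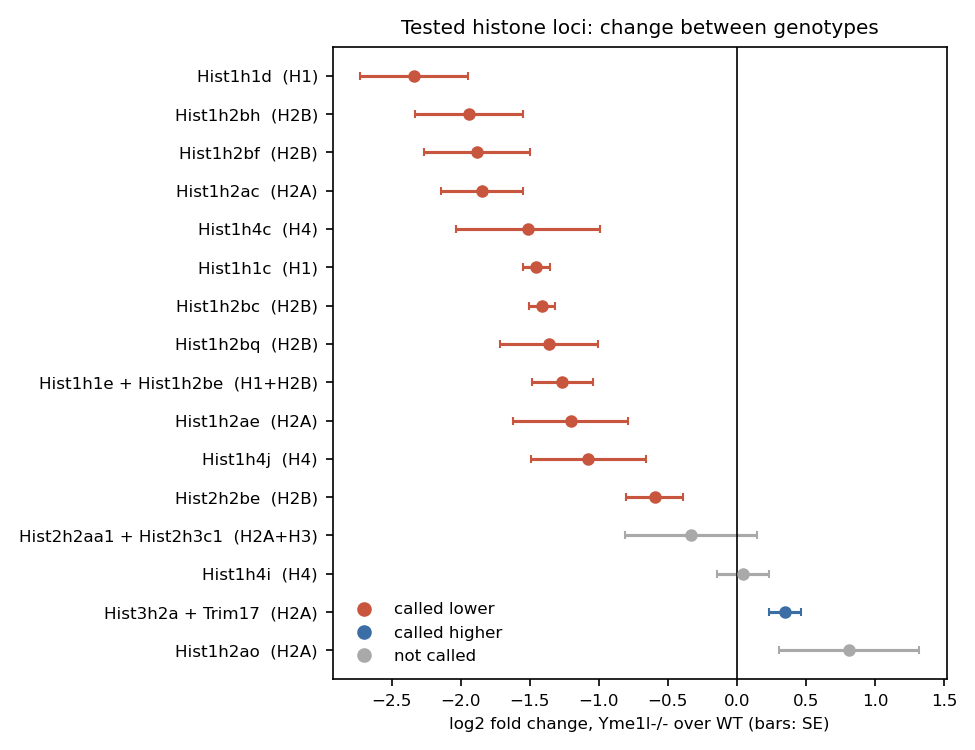
Log2 fold change (Yme1l-/- over WT) of the 16 tested histone loci with the SE from the edgeR fit as bars, ordered by size, the class in parentheses. The values run from -2.34 in Hist1h1d to 0.81 in Hist1h2ao, and the vertical line marks no change.

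Of 20 loci with an H2A gene 5 were tested, of which 2 were called lower, 1 higher and 2 not, near the 34.1% and 33.6% of all loci. The 2 called lower, Hist1h2ac and Hist1h2ae, reached the filter through WT only. Hist1h2ac gave 30, 25 and 31 fragments in WT and 6, 12 and 15 in Yme1l-/- cultures, so that every Yme1l-/- count lay below every WT count (log2 fold change -1.85 ± 0.30, edgeR adjusted p = 0.000192). Hist1h2ae gave 12, 12 and 10 against 8, 6 and 6 (log2 fold change -1.20 ± 0.42, edgeR adjusted p = 0.0240), a call that was lost in 5 of 12 alternatives, namely with DESeq2 (adjusted p = 0.0999) and without WT culture 1 or 2 or Yme1l-/- culture 2 or 3. Hist1h2ao gave 8, 2 and 18 fragments in WT and 19, 28 and 21 in Yme1l-/- cultures, with a wide spread among the WT cultures (log2 fold change 0.81 ± 0.51, edgeR adjusted p = 0.179). Without WT culture 3 the value of Hist1h2ao was 1.70 and passed the test (edgeR adjusted p = 0.0160), while without WT culture 2 it was 0.33 (edgeR adjusted p = 0.503), and it was not called in the other fits that leave out a culture. As 92.7% of its windows occur in other H2A genes, its fragments are uncertain in origin too.

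The member called higher was the locus that joins Hist3h2a with Trim17, a gene for a tripartite motif protein on chromosome 11 (58954685-58978050). It gave 155, 171 and 144 fragments in WT and 224, 287 and 313 in Yme1l-/- cultures, or 4.77 ± 0.414 and 6.08 ± 0.359 CPM (log2 fold change 0.35 ± 0.11, edgeR adjusted p = 0.0177). The median log2 fold change of all tested loci on chromosome 11 was 0.36. With the chromosome medians removed the locus stood at -0.0094 and was not called, and it was not called without WT culture 3 (edgeR adjusted p = 0.0651). How its fragments divide between Hist3h2a and Trim17 cannot be read from the counts. Summed over 19 H2A loci with the locus joined with Trim17, which held most of the sum, the level in Yme1l-/- MEFs was 109% of WT. Without that locus, an alternative added after the data were seen, the other 18 summed to 2.03 ± 0.389 CPM in WT and 1.36 ± 0.259 CPM in Yme1l-/- MEFs, 67.0% of WT, so the direction of the sum turns on it.

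H3 and H4 were thinly covered. The only tested locus with an H3 gene was Hist2h3c1 joined with the H2A gene Hist2h2aa1, with 13, 25 and 13 fragments in WT and 7, 36 and 14 in Yme1l-/- cultures (log2 fold change -0.33 ± 0.48, edgeR adjusted p = 0.557). Culture 2 was the highest in each genotype, and without WT culture 2 the value was 0.050. The authors' FPKM (fragments scaled to transcript length and library size, 1 value per genotype) for the locus runs the other way, 0.259 in WT and 0.379 in Yme1l-/- MEFs. The 11 loci of H3 alone had no tested member, and their sum was 1.42, 1.65 and 1.62 CPM in WT and 0.829, 0.833 and 0.550 CPM in Yme1l-/- cultures.

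Among the H4 genes, Hist1h4i (chr13:22040636-22041362) was the best covered and was not called. It gave 87, 113 and 90 fragments in WT and 109, 117 and 187 in Yme1l-/- cultures, or 2.95 ± 0.443 and 3.04 ± 0.678 CPM (log2 fold change 0.04 ± 0.19, edgeR adjusted p = 0.853), and the direction turned in 4 of 13 alternatives. Hist1h4c gave 17, 14 and 16 against 13, 6 and 3 (log2 fold change -1.51 ± 0.52, edgeR adjusted p = 0.0236). Hist1h4j gave 10, 11 and 10 against 7, 5 and 8 (log2 fold change -1.08 ± 0.42, edgeR adjusted p = 0.0388). Both calls rest on few fragments, and both loci reached the filter through WT only. That of Hist1h4c was lost in 4 of 12 alternatives, without WT culture 1 or 3 or Yme1l-/- culture 2 or 3, with adjusted p up to 0.0870 in edgeR, and its value ran from -2.38 without Yme1l-/- culture 1 to -1.04 without Yme1l-/- culture 3. That of Hist1h4j was lost in 8 of 12, among them DESeq2 (adjusted p = 0.151), the fit without a filter, the replicate block and 5 of the 6 fits that leave out a culture, all but the fit without Yme1l-/- culture 1. Summed over 13 H4 loci, Yme1l-/- MEFs held 87.0% of the WT level, with cultures at 4.94, 3.17 and 5.48 CPM against 4.74, 5.83 and 5.05 in WT.

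**Figure D3:**
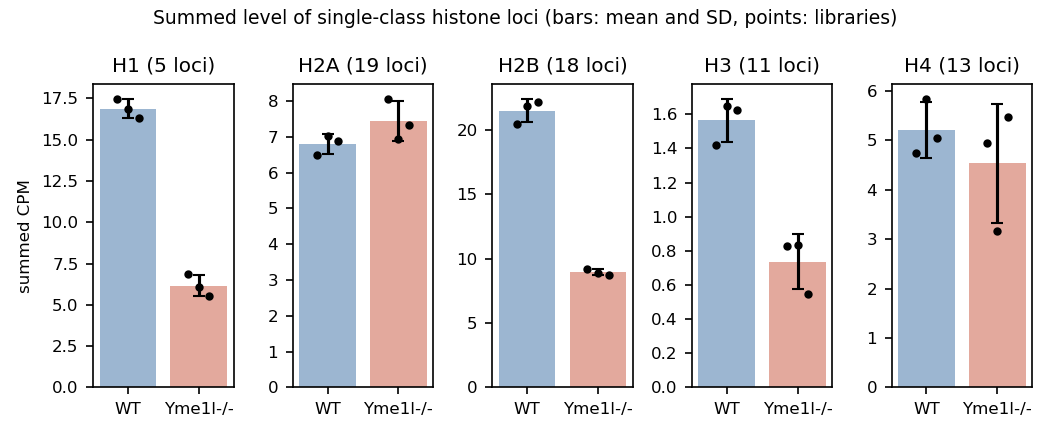
Summed CPM of the loci of each histone class, without the loci that join genes of different histone classes, as mean with SD (bars, n = 3) and single libraries (points). The H2A panel includes the locus joined with Trim17. H1 and H2B in Yme1l-/- MEFs lie at 36.6% and 41.6% of WT, with no overlap, while the H2A and H4 libraries overlap. The vertical axes differ between panels and start at 0.

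Hist1h1c and Hist1h2bc made up much of what was counted. They took 57.1% to 57.9% of all member fragments in the WT cultures and 37.3% to 41.4% in the Yme1l-/- cultures. Without them the other 66 loci summed to 23.1 ± 0.489 CPM in WT and 17.4 ± 1.11 CPM in Yme1l-/- MEFs, 75.3% of WT. Compared per length, in the authors' FPKM, Hist1h2bc stood at 15.5 in WT and 5.82 in Yme1l-/- MEFs and Hist1h1c at 11.0 and 4.03. Hist1h4i followed at 5.32 and 5.46, so that it lay below Hist1h1c in WT and above it in Yme1l-/- MEFs. Hist1h2bq was listed at 5.21 and 1.97. No spread is given with the FPKM, so the order of neighbours within a genotype cannot be set against an error.

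The 52 members below the filter were near the floor of these libraries. Of them 50 had at least 1 fragment, none had more than 37 in any library, and the median total over the 6 libraries was 16.5. Over all 68 members, 42 had at most 10 fragments in every library, 14 had at most 3, and 2 had none. The highest totals below the filter were 59 for the H4 gene Hist1h4k (4, 3 and 1 in WT against 11, 3 and 37 in Yme1l-/- cultures), 49 for Hist1h1b, which encodes H1.5 (12, 12 and 3 against 2, 14 and 6), and 44 for the H3 gene Hist1h3c (6, 11 and 11 against 5, 5 and 6). The total of Hist1h4k rests mainly on Yme1l-/- culture 3. Together the 52 loci held 5.44 ± 0.652 CPM in WT and 3.56 ± 0.473 CPM in Yme1l-/- MEFs, 65.5% of WT. The mean was higher in WT in 35 loci and higher in Yme1l-/- MEFs in 15. In a fit without the filter, 17 of 66 members were called, 14 lower and 3 higher. Of the 23035 loci in that fit, 22.4% were called lower and 21.3% higher, so the share of members called lower was near that of all loci. Most of the 17 had passed the filter. Of the members below it, only Hist3h2ba, Hist1h3g and Hist2h3c2 were called lower, and only Hist1h2bp and Hist1h4k higher. Named for standing out after the values were seen, the H2B gene Hist3h2ba gave 13, 10 and 7 fragments in WT and 0, 1 and 0 in Yme1l-/- cultures.

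Which members were counted went along with how far the annotation extends past the stop codon. More than 100 annotated bases follow the stop codon in 29 loci, and 14 of these were tested. Of the other 39 loci, with at most 100 such bases or no reading frame, 2 were tested, Hist1h2ao and Hist1h2bf. The median was 1046.5 bases in the tested and 77 bases in the untested loci. A longer annotated transcript collects more fragments at the same level, and per length the median FPKM was 0.319 for the 29 loci and 0.226 for the other 39. A poly(A) signal (AATAAA or ATTAAA) in the last 40 annotated bases was found in 9 of 16 tested and 8 of 52 untested loci, and in 48.7% of the protein-coding transcripts of other genes. Among the tested loci, the stem-loop was found in 13 of 16. The 3 without it were Hist1h2bc, Hist1h2bq and Hist2h2be, all H2B genes.

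**Figure D4:**
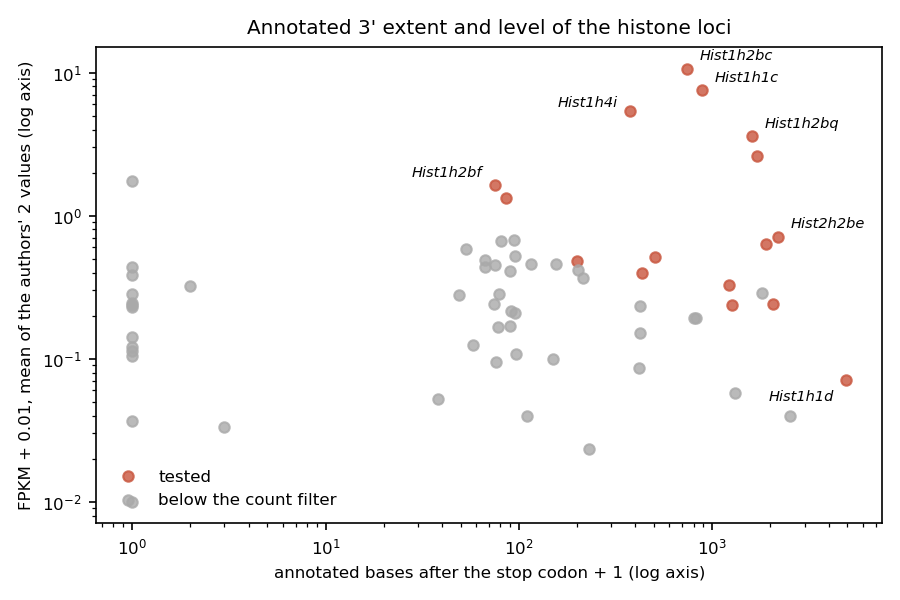
Annotated bases after the stop codon (plus 1) against the mean of the authors' 2 FPKM values (plus 0.01), both on log axes, for members with a reading frame. Most tested loci (red) lie beyond 100 bases, and loci below the filter (grey) reach similar FPKM at both short and long extents, while Hist1h1d has the longest annotated end and a low FPKM.

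The members lie in clusters. The Hist1 cluster on chromosome 13 falls into a first stretch with 24 loci (21715763-22043676) and another with 30 loci (23531050-23934851), a division made after the positions and values were seen. Hist1h2al, a pseudogene without a fragment in any library, lies outside both. In the stretch with 30 loci, all 9 tested members fell, but 6 of the 9 had reached the filter through WT only, so the count says little by itself beside the 34.1% of all loci that were called lower. The other 3 were Hist1h1c, Hist1h2bc and the locus of Hist1h1e and Hist1h2be. Of the 21 untested loci of the stretch, 20 had a lower mean CPM in Yme1l-/- MEFs and 1, Hist1h2af with 0, 0 and 2 fragments against 5, 7 and 3, a higher one. The summed level of all 30 was 37.6% of WT (39.5 ± 0.769 against 14.9 ± 1.74 CPM). In the stretch with 24 loci, 2 of 4 tested members fell, of which Hist1h4j reached the filter through WT only, and the summed level was 91.9% of WT (6.30 ± 0.819 against 5.79 ± 0.857 CPM). The difference between the stretches was not tested. Hist1h2bc and Hist1h1c belong to the stretch with 30 loci. Of the 9 Hist2 loci on chromosome 3, 2 were tested and 1 fell, and their sum was 65.9% of WT. Of the 3 Hist3 loci 1 was tested, and the Hist4h4 locus on chromosome 6 was not, with at most 6 fragments per library.

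Between the first and last member of the cluster, 7 other loci were tested, 2 called higher and 3 lower, where 33.6% and 34.1% of all loci were, with a median log2 fold change of -0.06. The 3 with the highest CPM were Abt1, an activator of basal transcription, at 0.01 ± 0.08 (not called), and the zinc finger genes Zfp322a at -0.24 ± 0.07 and Zfp184 at -0.37 ± 0.12 (edgeR adjusted p = 0.0117 and 0.0151). Named after their values were seen, Hfe, which regulates iron uptake, stood at 1.84 ± 0.18 and the butyrophilin gene Btn1a1 at -2.94 ± 0.15. The median of all tested loci on chromosome 13 was 0.08.

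**Figure D5:**
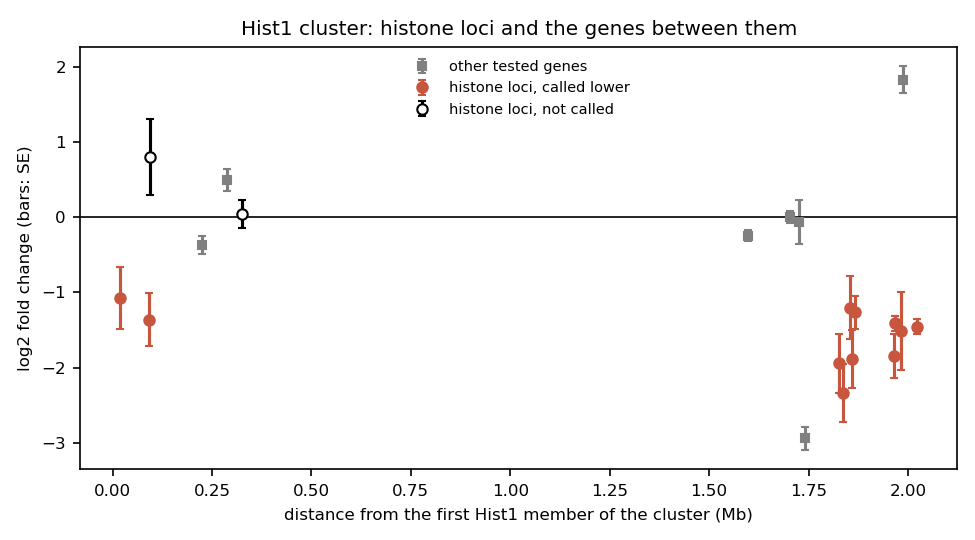
Log2 fold change with SE of the 13 tested histone loci of the Hist1 cluster (circles) and the 7 other tested loci between them (grey squares), by distance in Mb from the first histone locus. The 9 histone loci of the far stretch lie between -2.34 and -1.20, while the other genes spread to both sides of 0.

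H2A and H2B genes often lie head to head. Among loci with 1 symbol, 13 neighbouring pairs ran in opposite directions with annotated starts 176 to 306 bases apart, and all 13 joined an H2A with an H2B gene. Both genes were tested in 2 pairs. In the pair of Hist1h2ac and Hist1h2bc, 251 bases apart, both fell (-1.85 and -1.41), although Hist1h2ac reached the filter through WT only. In the pair of Hist1h2bq and Hist1h2ao, 268 bases apart, Hist1h2bq fell (-1.36) and Hist1h2ao was not called (0.81), and both have fragments of uncertain origin.

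The promoters of Hist1h1c and of the pair of Hist1h2ac and Hist1h2bc are shown because they serve the best covered members. They run from 250 bases before to 50 bases after the annotated start (RefSeq, GRCm38.p6), with capitals for short motifs known from histone promoters. Searched were the box with the letters CCAAT, the H1 box with the letters AAACACA, the octamer with the letters ATTTGCAT, which POU2F1 binds, and the TATA form with the letters TATAAA, each on both strands, so that some are printed as their reverse complement. The window of Hist1h2ac reaches past the annotated start of Hist1h2bc on the other strand.
Hist1h1c, chr13:23738557-23738856, plus strand: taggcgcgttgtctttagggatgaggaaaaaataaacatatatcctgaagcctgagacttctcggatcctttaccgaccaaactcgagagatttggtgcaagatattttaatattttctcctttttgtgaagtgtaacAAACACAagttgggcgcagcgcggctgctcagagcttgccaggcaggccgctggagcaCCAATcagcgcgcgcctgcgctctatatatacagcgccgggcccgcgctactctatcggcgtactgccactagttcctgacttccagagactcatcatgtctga
Hist1h2ac, chr13:23683910-23684209, minus strand: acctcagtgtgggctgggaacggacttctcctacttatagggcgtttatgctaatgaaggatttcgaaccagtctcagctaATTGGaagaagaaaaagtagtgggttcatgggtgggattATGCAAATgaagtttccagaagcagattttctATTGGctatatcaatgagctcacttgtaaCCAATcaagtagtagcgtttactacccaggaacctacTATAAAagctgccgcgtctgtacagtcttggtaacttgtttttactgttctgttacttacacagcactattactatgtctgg
Of the 70 symbols, 61 had a window. CCAAT was found in all windows of H1 (6), H2A (17), H2B (17) and H3 (10) genes and in 3 of 12 of H4, against 37.3% of 32789 promoters of other genes. The octamer was found in 7 of 17 windows of H2A and 7 of 17 of H2B genes and in none of the other classes, against 1.70%. AAACACA was found in 5 of 6 windows of H1, 2 of 17 of H2A and 2 of 17 of H2B genes and in none of H3 or H4, against 7.17%. TATAAA was found in 4 of 6 windows of H1, 11 of 17 of H2A, 8 of 17 of H2B, 4 of 10 of H3 and 8 of 12 of H4 genes, against 13.5%. A window can hold several of these motifs, and a match describes the letters only.

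Genes that act on histone mRNAs were examined as lists, whose counts are to be read against the 34.1% of all loci called lower and the 33.6% called higher. Of 32 genes for histone gene transcription and 3′ end formation, all tested, 6 were higher and 15 lower (median -0.11). Slbp, which binds the stem-loop, rose slightly from 150 ± 4.15 to 165 ± 1.70 CPM (log2 fold change 0.13 ± 0.04, edgeR adjusted p = 0.0133), and Npat, the coactivator of histone gene transcription, fell from 110 ± 4.79 to 74.8 ± 5.31 CPM (-0.56 ± 0.06, edgeR adjusted p = 6.6e-06). Casp8ap2, a partner of NPAT in histone locus bodies, and Lsm11, a subunit of the U7 particle that guides the cut, each stood at 0.11 and were not called. The largest falls in well covered genes were in Cpsf2 (-0.72) and Cpsf3 (-0.63), the latter the nuclease that cuts both histone and polyadenylated pre-mRNAs, in Pou2f1 (-0.69), which binds the octamer, and in Ccne2 (-0.69), a cyclin of the entry into S phase. Of 10 genes for histone mRNA decay 2 were higher and 5 lower (median -0.14). The genes called lower were Eri1, a nuclease that trims the stem-loop end (-0.22), Upf1, a helicase (-0.45), Xrn1 and Dis3, nucleases that degrade RNA from its opposite ends (-0.64 and -0.36), and Lsm1, of the ring of Lsm proteins that promotes decapping (-0.42). The genes called higher were Dcp2, the decapping enzyme (0.15), and Zcchc6, which adds uridines to RNA ends, in a locus joined with other genes (0.21). The number called higher was 1 in 5 of the 6 fits that leave out a culture, all but the fit without Yme1l-/- culture 1. With chromosome medians removed, 3 of the 10 were called, 1 higher and 2 lower.

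RNAs for histone chaperones and for histones made outside S phase were counted too, to be read against the same 34.1% of all loci called lower and 33.6% called higher. Of 20 chaperone genes 5 were higher and 9 lower (median -0.04). Nasp, which holds free H3 and H4, rose (0.20 ± 0.05), as did Chaf1a, the large subunit of the assembly factor CAF-1 (0.17 ± 0.04). Supt16, a subunit of FACT (-0.39), Ubn1, a partner of HIRA (-0.39), Nap1l4, a carrier of H2A and H2B (-0.37), and Atrx, which places H3.3 in heterochromatin (-0.37), fell. Of 11 genes for replication-independent variants 2 were higher and 4 lower (median 0.04). H2afx, the variant phosphorylated at DNA breaks, fell from 121 ± 8.28 to 80.1 ± 6.16 CPM (-0.59 ± 0.07, edgeR adjusted p = 1.1e-05). The H3.3 genes moved apart, with H3f3b higher (0.18 ± 0.05) and H3f3a lower (-0.42 ± 0.06), while H2afz was not called (0.04 ± 0.06). H2afy2, a macroH2A gene, rose (0.91 ± 0.05) and Cenpa, the H3 variant of centromeres, fell (-0.44 ± 0.05). The number called higher was 4 with upper-quartile scaling and with the replicate block, and 1 higher and 7 lower were called with chromosome medians removed.

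Of 19 measured S-phase genes, 10 were higher and 2 lower (median 0.11), where 33.6% and 34.1% of all loci were. The number called higher was 7 without WT culture 1, WT culture 2 or Yme1l-/- culture 2 and in the fit without the filter. Without Yme1l-/- culture 1, 8 were higher and 4 lower. Mcm2, a subunit of the replicative helicase, rose from 369 ± 7.17 to 612 ± 24.3 CPM (0.73 ± 0.05, edgeR adjusted p = 1.3e-07), and Prim1 (0.51 ± 0.04) and Pcna (0.23 ± 0.04), for primer synthesis and the sliding clamp, rose too. Rrm2, the regulated subunit of ribonucleotide reductase, fell from 287 ± 1.46 to 182 ± 2.68 CPM (-0.66 ± 0.04, edgeR adjusted p = 5.9e-08). Ccna2, the cyclin of S phase, stood at -0.09 ± 0.04 (edgeR adjusted p = 0.0701). The share of cells in S phase was not measured in these libraries.

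RNAs that carry no poly(A) tail were used to look at carry-over, and markers to look at cell types, with counts to be read against the same 34.1% of all loci called lower and 33.6% called higher. The loci on the list of untailed RNAs summed to 1409 ± 46.3 CPM in WT and 1423 ± 41.0 CPM in Yme1l-/- MEFs. Of 10 tested loci 3 were higher and 3 lower (median log2 fold change 0.0033). As 8 of these 10 were joined with a host gene, the sum and the calls include host transcripts and do not measure carry-over. Rn7sk, which stands alone and had the lowest log2 fold change on the list, gave 48, 44 and 57 fragments in WT and 31, 35 and 40 in Yme1l-/- cultures (log2 fold change -0.95, edgeR adjusted p = 0.000957). Of 11 tested fibroblast markers 8 were lower and 2 higher, and the summed level of all 12 loci on that list was 15365 to 15983 CPM in WT and 9965 to 10713 CPM in Yme1l-/- cultures, with Thy1 at 4, 6 and 4 fragments against 0 in each Yme1l-/- culture. Of 6 tested markers of other cell types 2 were lower and 2 higher, and the summed level of all 13 loci on that list was 37.0 to 38.5 CPM in WT and 8.23 to 9.70 CPM in Yme1l-/- cultures, where the epithelial keratin gene Krt18 alone went from 1048, 1086 and 1012 fragments to 0, 1 and 3. Without Krt18 the other 12 loci went the opposite way, from 5.28 to 6.00 CPM in WT to 8.23 to 9.64 CPM in Yme1l-/- cultures. The muscle gene Des (2.60) and the macrophage gene Cd68 (1.04) were called higher and the epithelial gene Epcam (-3.83) lower on the log2 scale. The leukocyte gene Ptprc had no more than 1 fragment per library and Adgre1, a macrophage marker, had none. The part of these differences in the histone result was not tested.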

How the data were processed

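RNA-seq libraries of 3 WT and 3 Yme1l-/- MEF cultures were stranded and poly(A)-selected, and 100-nucleotide read pairs were sequenced. According to the methods and processing notes, the authors mapped reads to GRCm38 (mm10, Ensembl 91) with HISAT2 2.0.4, assembled transcripts with StringTie 1.3.3 and compared genotypes with Cuffdiff 2.2.1. The deposited count table holds raw fragment counts per assembled locus. The deposited comparison table gives FPKM as 1 pooled value per genotype, from which levels per length and positions were taken. Its log2 ratios, p-values and q-values were not used. How fragments with several matching places were counted is not given in the sources used here.

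The counts were fitted with edgeR 4.0.16 in R 4.3.3 (filterByExpr with a minimum count of 10, TMM, robust quasi-likelihood fit without covariates, two-sided test, Benjamini-Hochberg adjustment over 13867 loci). A call means an adjusted p under 0.05, and adjusted p-values in the text are from this fit unless DESeq2 1.42.0 is named. Errors of CPM are SDs (n = 3) and errors of log2 fold changes are SEs. The fit was tested on simulated data. Summed levels were not tested. The errors given include the spread between cultures. PCR copies were not identified, and their bearing on the precision was not tested.

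Members and gene lists were chosen with earlier results of these data known. Named were all tested members, the 3 highest untested ones, of each list the 4 calls with the largest change at 10 CPM or more, and a set of key genes, except 1 gene that is not reported here. Of the 21 S-phase symbols 19 were in the table. Transcripts came from GENCODE M21 (Ensembl 96), whose start and end equalled those of 58 of 65 loci with 1 symbol. Of 70 symbols, 69 matched 1 RefSeq gene. Alternatives were RLE and upper-quartile scaling, DESeq2, no filter or 10 counts in every library, a replicate block, leaving out each culture, removing chromosome medians and leaving out joined loci.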

Additional observations from a re-analysis of the deposited data

How the results depend on the processing

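The number of members called, 13 of 16, ranged from 11 to 14 when each culture was left out, with 17 to 21 members tested (11 of 21 without Yme1l-/- culture 2 and 11 of 19 without WT culture 1), was 17 of 66 without the filter and fell to 6 of 7 when 10 counts were required in every library, which leaves fewer loci. Without Yme1l-/- culture 2, 9 members were lower and 2 higher, while 1 was higher in each other fit that leaves out a culture. The median log2 fold change of the members, -1.31, ranged from -1.45 to -1.14 when each culture was left out, and stood at -0.96 without the filter, -1.39 with chromosome medians removed and -1.41 without joined loci. The summed level, 53.4% of WT, was 46.1% without joined loci and 46.3% without the locus joined with Trim17. The decay factors called fell from 7 to 3 with chromosome medians removed. Hist1h4i ran from -0.12 to 0.21 when each culture was left out and stood at -0.038 with chromosome medians removed, the locus of Hist2h2aa1 and Hist2h3c1 ran from -1.08 to 0.050, and the locus of Hist3h2a and Trim17 turned to -0.0094 with chromosome medians removed. The cause of the changes with chromosome medians was not tested.

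Hist1h1c, Hist1h2bc, Hist1h1d, Hist1h2ac, Hist1h2bh, Hist1h2bf, Hist1h2bq and the locus of Hist1h1e and Hist1h2be kept their direction and their call in all alternatives in which they could be fitted. Culture numbers did not pair the samples (correlations of same-numbered deviations 0.198, -0.158 and 0.048). With a replicate block 12 members and 9794 of all loci were called, against 13 and 9387, and the call of Hist1h4j was lost. Depth limits the 52 members below the filter, whose median total was 16.5 fragments.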
